A study of Mus musculus with 4 samples.

Results

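The cells described here are chandelier-like interneurons of juvenile mouse frontal cortex and hippocampus: GABAergic cells that held Pthlh transcripts and none of Crabp1. They number 272 of 9939 cells with Gad1 or Gad2, out of 26987 cells in all. They were chosen by measured values. A cell needed 200 to 6000 detected genes, under 30% of its UMIs (unique molecular identifiers, each standing for a captured RNA molecule) from mitochondrial genes, at least 2 UMIs of Gad1 and Gad2 together, no Mog UMI, at least 3 UMIs of Pthlh, none of Crabp1, and Sst below 3000 CPM (UMIs of the gene per 1000000 UMIs of the cell). Values of those 6 genes are therefore descriptions and support nothing. The cells are called Pthlh cells hereafter.

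Single-cell RNA-seq (10x Genomics) was run on TdTomato-positive cells sorted from the frontal cortex and the hippocampus of mice at postnatal days 18 to 20, to compare the regions and to ask what loss of the NMDA receptor subunit Grin1 does to interneurons. In every group an Nkx2.1-Cre allele switched on TdTomato from the Ai14 reporter, and every tissue was handled in TTX, APV and actinomycin-D. WT mice were Grin1 wt/wt, and null mice were littermates that were Grin1 fl/fl; both sexes were used. There were 3 libraries of cortex WT, 2 of cortex null, 3 of hippocampus WT and 2 of hippocampus null. The driver limits the model: only the Nkx2.1 lineage is labelled, and in null mice the deletion acts in that lineage from its progenitors on. Which mice entered a library is not given in the sources used here and a library may hold several animals, so p-values measure the spread between libraries.

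Cortical and hippocampal interneurons of this lineage arise in the medial ganglionic eminence (MGE), an embryonic zone that also makes the Pvalb basket cells and the Sst cells. Chandelier cells, also called axo-axonic cells, are fast-spiking interneurons whose vertical rows of boutons contact the axon initial segment of pyramidal neurons, where action potentials start. Pthlh encodes parathyroid hormone-related protein, a secreted ligand of the receptor Pth1r, and Grin1 encodes the subunit that every NMDA receptor needs.

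The libraries differ in size, depth and 10x chemistry. Replicate 1 of each group was made with chemistry version 2 and replicates 2 and 3 with version 3. The total UMIs of a library ran from 1488601 in cortex null replicate 1 to 47338167 in hippocampus null replicate 2. Cortex WT replicates 1, 2 and 3 held 22, 35 and 29 Pthlh cells, and cortex null replicates 1 and 2 held 2 and 76. Hippocampus WT replicates 1, 2 and 3 held 17, 2 and 11, and hippocampus null replicates 1 and 2 held 5 and 73. Hence 7 libraries had at least the 10 Pthlh cells needed for tests of genes, and the null libraries among them were both replicate 2. Gad cells of hippocampus WT replicate 2 were the shallowest, with a median of 2040 UMIs, against 13929 and 13930 in replicate 2 of cortex null and hippocampus null. Pthlh cells had a median of 11551 UMIs, with a range of 1448 to 30829. Of 26892 different barcodes, 95 were found in more than 1 library, at most 12 in any of the 45 pairs of libraries, and 1 Pthlh cell had such a barcode. At least 3 UMIs over the marker lists of glutamatergic cells, glia and vessel cells, counted as a likely doublet, were found in 62 Pthlh cells, 40 of them in hippocampus null replicate 2.

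Xist, the transcript of the inactive X chromosome, showed that replicates also differed in the sex of their mice; it was chosen after its values were seen. Over all cells it stood at 455, 75.0, 848 and 577 CPM in replicates 1 and 3 of cortex WT and hippocampus WT. It was at most 0.115 CPM in replicate 2 of all 4 groups. In null replicate 1 it was 77.8 CPM in cortex and 0 in hippocampus. Genes of the Y chromosome had UMIs in every library, from 44.9 CPM in cortex WT replicate 1 to 235 CPM in hippocampus WT replicate 2. Libraries with Xist may therefore hold mice of both sexes. The null libraries with at least 10 Pthlh cells thus match cortex WT replicate 2 in Xist and chemistry, and differ in Xist from the other 4 WT libraries of that size.

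Grin1 (chromosome 2, 25291181 to 25319187, minus strand of GRCm38) was measured first, since it checks the genotype. In Pthlh cells it stood at 125, 205 and 141 CPM in cortex WT replicates 1, 2 and 3, and at 64.7, 0 and 118 CPM in hippocampus WT replicates 1, 2 and 3. It was 0 and 32.5 CPM in cortex null replicates 1 and 2, and 12.6 and 17.8 CPM in hippocampus null replicates 1 and 2. Among the 7 libraries with at least 10 Pthlh cells, every WT value lay above every null value; the WT value of 0 came from 2 cells with 12102 UMIs together. Grin1 UMIs were still found in 22 of 76 Pthlh cells of cortex null replicate 2 and 18 of 73 of hippocampus null replicate 2, beside 25 of 35 in cortex WT replicate 2. The difference of null from WT was -2.31 on the log2 scale (SE 0.37), and its adjusted p of 0.0111 (edgeR quasi-likelihood test, Benjamini-Hochberg) misses the threshold of 0.01 used here; DESeq2 does call it. In this fit each region had a single null library. The spread behind the SE and the p therefore came from WT libraries alone. The libraries read the 3' ends of transcripts, and whether these lie within the deleted stretch is not given in the sources used here.

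Most Pthlh cells carried the markers their name calls for. Kcnc1, a fast-spiking potassium channel, had a UMI in 97.1% of Pthlh cells, Kcnip2, an auxiliary subunit of A-type potassium channels, in 82.0%, and Pvalb, a calcium buffer, in 80.5%. Of the chandelier markers outside the rule, Fgf13, which binds sodium channels, had a UMI in 92.6%, Unc5b, a netrin receptor, in 66.5%, C1ql1, a secreted synaptic protein, in 64.0%, Cpne5, a copine, in 51.5%, and Vipr2, a receptor of vasoactive intestinal peptide, in 12.9%. Shares depend on depth, and RNA set free during dissociation can add UMIs to any cell, so the same shares were taken in oligodendrocytes (7078 cells with at least 2 Mog UMIs), whose median was 5795 UMIs. There they were 1.02% for Kcnc1, 0.339% for Kcnip2, 2.32% for Pvalb, 1.13% for Fgf13, 2.09% for C1ql1, 0.283% for Cpne5, 0.0141% for Vipr2 and 50.8% for Unc5b. All but Unc5b were thus near 0 in oligodendrocytes. Unc5b is a marker among the interneurons alone, with 2.66% of the Pvalb cells defined further on and 9.41% of Pthlh cells with Crabp1. A further 9582 Gad cells were neither Pthlh cells nor Pthlh cells with Crabp1. Their shares were 72.8% for Kcnc1, 55.1% for Fgf13, 28.6% for Cpne5, 27.7% for Pvalb and 24.2% for Kcnip2. Those of Unc5b, C1ql1 and Vipr2 were 3.32, 2.89 and 0.188%. Kcnc1 and Fgf13 were thus common in other interneurons as well. Thinned to 3000 UMIs per cell, which left out 6 Pthlh cells and 1928 oligodendrocytes, the shares of Pthlh cells were 84.2% for Kcnc1, 48.5% for Kcnip2, 66.9% for Pvalb, 72.9% for Fgf13, 33.8% for Unc5b, 47.7% for C1ql1, 28.9% for Cpne5 and 3.38% for Vipr2. The thinned oligodendrocyte shares were 34.9% for Unc5b and at most 1.51% for the other 7 genes, so the order of the cell kinds held at equal depth for all of them except Unc5b.

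Levels of these markers varied between libraries, and none of the 4 given with the cell type was absent from a library with 10 Pthlh cells. Over those 7 libraries Pthlh (chromosome 6, 147252101 to 147264183, minus strand) ran from 434 to 1193 CPM (mean 706 ± 258, SD), Pvalb from 374 to 1794 CPM (mean 1175 ± 476, SD), Kcnip2 from 216 to 399 CPM (mean 292 ± 72.7, SD) and Kcnc1 from 564 to 1009 CPM (mean 808 ± 158, SD). C1ql1 ran from 234 to 614 CPM (mean 438 ± 136, SD), Unc5b from 68.4 to 222 CPM (mean 126 ± 47.3, SD), Fgf13 from 362 to 984 CPM (mean 639 ± 216, SD) and Cpne5 from 31.0 to 332 CPM (mean 162 ± 107, SD). Pvalb had the widest spread of the first 4, and 53 of the 272 cells (19.5%) had no Pvalb UMI, so Pvalb alone would have missed them.

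C1ql1 and Unc5b, which the rule did not use, split the Pthlh cells. A UMI of at least 1 of the pair was found in 213 of 272 (78.3%): 142 had both genes, 32 C1ql1 alone and 39 Unc5b alone, and 59 had neither. The same was true of 4.39% of 979 Pvalb cells. By library the cells with either gene were 12 of 22, 32 of 35 and 18 of 29 in cortex WT replicates 1, 2 and 3, and 1 of 2 and 63 of 76 in cortex null replicates 1 and 2. They were 12 of 17, 2 of 2 and 8 of 11 in hippocampus WT, and 5 of 5 and 60 of 73 in hippocampus null. Cells of both kinds were thus present in every library with at least 10 Pthlh cells.

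The threshold on Pthlh lies on a slope. Among Gad cells without Crabp1 and with Sst below the limit, C1ql1 or Unc5b was found in 28.0% of 93 cells with 2 Pthlh UMIs, just outside the rule, and in 51.9% of 54 cells with 3, just inside it. The share was 71.4% of 35 cells with 4 UMIs and 87.4% of 183 cells with 5 or more, beside 13.7% of 329 cells with 1 and 8.77% of 4388 cells with none. Median depths of these groups lay between 6739 and 12704 UMIs, and the part of depth in this slope was not tested. Just inside the Sst limit, at 1000 to 3000 CPM, lay 5 Pthlh cells, and 0 of them had C1ql1 or Unc5b; 13 further cells were left out at 3000 or more, also with 0. Of cells left out for Crabp1, 11 had 1 Crabp1 UMI, 5 had 2 and 69 had 3 or more, and C1ql1 or Unc5b was found in 1, 0 and 11 of them.

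**Figure D1:**
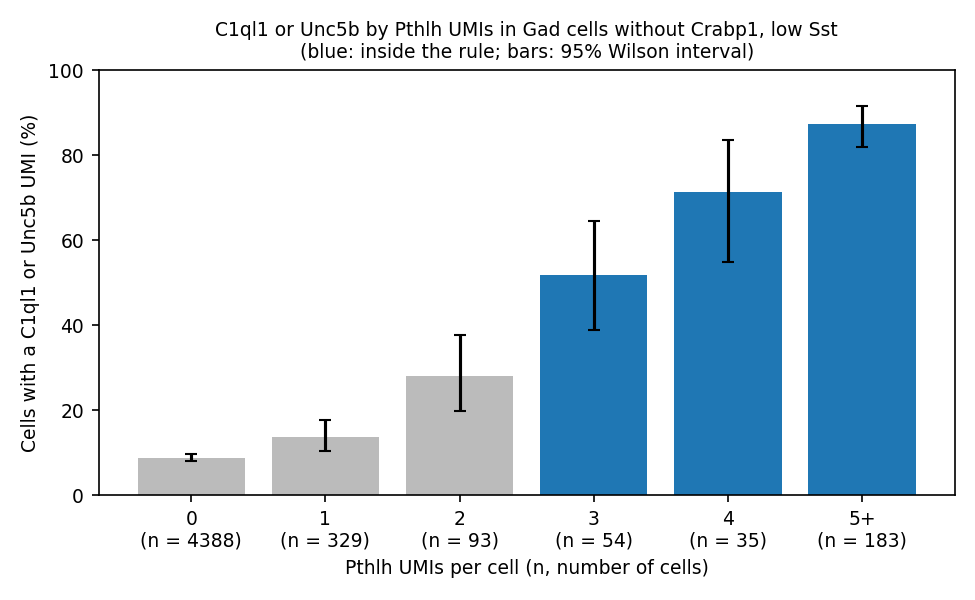
Share of cells (%) with a C1ql1 or Unc5b UMI against the number of Pthlh UMIs per cell, in Gad cells without Crabp1 and with low Sst, with 95% Wilson intervals as error bars; blue bars lie inside the rule. The share is 28.0% at 2 UMIs, 51.9% at 3 and 87.4% at 5 or more.

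The 59 cells with neither gene differed from the other 213 in genes that were chosen after their values were seen, as a description with no test. Summed over cells, Tac1, the precursor of substance P, stood at 1292 CPM in the 59 and 73.8 in the 213, and Rbp4, a retinol carrier, at 333 and 12.7. Thsd7a, a thrombospondin-domain protein, stood at 314 and 1233. The cells without C1ql1 and Unc5b thus had more Tac1 and Rbp4, which Pvalb cells hold at high levels, and less Thsd7a in these sums; cortex WT replicate 2, with 3 cells of the 59, had Rbp4 at 0 CPM in them and 3.92 in the rest. Their median was 4 Pthlh UMIs, against 8. Counts per cell were low, with a median of 2 C1ql1 UMIs and 1 Unc5b UMI, so a cell at 0 may still hold the gene. The chandelier markers Fgf13 and Cpne5 stood at 280 and 25.0 CPM in the 59 and at 769 and 162 in the 213. In the 936 Pvalb cells with neither gene they stood at 106 and 4.27 CPM. By C1ql1 and Unc5b the chandelier-like name therefore rests on 213 of the cells, and the rule also admits cells in which neither was found.

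To find what sets Pthlh cells apart from other Pvalb-type cells, they were compared with the 979 Pvalb cells, which passed the same limits with 0 Pthlh UMIs and at least 3 of Pvalb, in the 6 libraries with at least 10 cells of each kind. Pvalb cells had a median of 8565 UMIs. Differences are log2 ratios of Pthlh cells to Pvalb cells from UMI counts summed per library, tested by the quasi-likelihood method of edgeR over 8452 genes, with p adjusted after Benjamini-Hochberg. In all, 803 genes passed (9.50% of those tested), 411 higher and 392 lower in Pthlh cells, and the median over all genes tested was -0.00. Pvalb, which chose the comparison cells, was left out of the calls along with the genes of the rule. At an unadjusted p under 0.05 there were 2154. A gene given as higher or lower passed at an adjusted p under 0.01, and in 6 of 6 libraries unless a smaller number is given.

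The 4 chandelier markers that could be tested were all higher in Pthlh cells, in 6 of 6 libraries each; several were named by the study from these same cells, so they are no independent evidence. Cpne5 (chromosome 17, 29155556 to 29238167, minus strand) ran from 31.0 to 332 CPM (median 135) in Pthlh cells and from 1.42 to 10.5 CPM (median 5.28) in Pvalb cells (log2 difference 5.37, SE 0.23, adjusted p = 2.02e-12). Unc5b (chromosome 10, 60762593 to 60831581, minus strand) ran from 68.4 to 222 CPM (median 124) and from 0.707 to 24.6 CPM (median 1.24) (log2 difference 5.32, SE 0.34, adjusted p = 6.51e-10), and C1ql1 (chromosome 11, 102939264 to 102946688, minus strand) from 234 to 614 CPM (median 476) and from 0 to 73.8 CPM (median 6.94) (log2 difference 5.26, SE 0.35, adjusted p = 8.75e-10). The libraries of the cell kinds did not overlap for any of the 3. Fgf13 (chromosome X, 59062145 to 59568071, minus strand) ran from 362 to 779 CPM (median 561) in Pthlh cells and from 62.2 to 327 CPM (median 107) in Pvalb cells (log2 difference 2.20, SE 0.14, adjusted p = 8.75e-10), and its ranges did not overlap either. Vipr2 was too low to be tested; it had a UMI in 12.9% of Pthlh cells, 0.102% of Pvalb cells and 0.0141% of oligodendrocytes.

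The largest rises outside the chandelier list, among called genes of at least 50 CPM that went the same way in every library, were in Kit, Gm4980, A830036E02Rik, Krt12, Cacna2d3, Isoc1 and Slc30a10. Kit (chromosome 5, 75574916 to 75656722, plus strand), the receptor of stem cell factor, ran from 39.9 to 204 CPM (median 84.7) in Pthlh cells and from 0 to 28.1 CPM (median 3.88) in Pvalb cells (log2 difference 4.65, SE 0.31, adjusted p = 9.11e-10). Cacna2d3, an auxiliary subunit of calcium channels, ran from 28.5 to 148 CPM (median 108) and from 1.42 to 45.7 CPM (median 4.18) (log2 difference 3.69, SE 0.33, adjusted p = 4.82e-08). Both were higher in 6 of 6 libraries; the ranges of Kit lay apart and those of Cacna2d3 overlapped. Krt12, a keratin, differed by 3.72 (SE 0.20) and A830036E02Rik, a noncoding gene, by 3.94 (SE 0.30). They overlap on chromosome 11 of GRCm38, Krt12 at 99415666 to 99422259 on the minus strand and A830036E02Rik at 99416956 to 99425497 on the plus strand, and since the use of strand in counting is not given in the sources used here, their reads may not be told apart. Gm4980 (Tpbgl in the annotation) differed by 4.24, Isoc1 by 3.61 and Slc30a10, a manganese transporter, by 3.61, with adjusted p of at most 2.43e-06 (edgeR quasi-likelihood, Benjamini-Hochberg).

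The largest falls by the same rule were in Th, Kcnip4, Rbp4, Slc30a3, Tmem91, Satb1, Cdh13, St6galnac5, Aldoc and Arhgef3. Th, the enzyme that starts catecholamine synthesis, was found in 2 of the 272 Pthlh cells and in 14.6% of Pvalb cells. Th ran from 0 to 34.2 CPM (median 0) in Pthlh cells and from 3.51 to 179.6 CPM (median 24.9) in Pvalb cells (log2 difference -4.92, SE 0.46, edgeR adjusted p = 9.91e-08). The study describes a separate Th cluster that also expresses Pvalb, and the rule for Pvalb cells sets no limit on Th. Kcnip4, an auxiliary subunit of A-type potassium channels, ran from 0 to 45.6 CPM (median 9.90) and from 112 to 270.4 CPM (median 129.8) (log2 difference -3.67, SE 0.28, adjusted p = 5.34e-09). Rbp4 ran from 3.53 to 384 CPM (median 128) and from 611 to 1213 CPM (median 1080.2) (log2 difference -3.38, SE 0.39, adjusted p = 1.41e-06), and Satb1, a chromatin organizer of MGE interneurons, from 24.7 to 165 CPM (median 53.2) and from 374 to 541 CPM (median 461) (log2 difference -2.83, SE 0.23, adjusted p = 1.85e-08). Each was lower in Pthlh cells in 6 of 6 libraries, and of the 4 the ranges of Th alone overlapped. Slc30a3, the vesicular zinc transporter, differed by -2.94, Tmem91 by -2.91, Cdh13, a cadherin, by -2.72, St6galnac5, a sialyltransferase, by -2.65, Aldoc, a glycolytic enzyme, by -2.63 and Arhgef3, a guanine nucleotide exchange factor, by -2.39. Their adjusted p was at most 3.2e-06 by the same edgeR test.

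**Figure D2:**
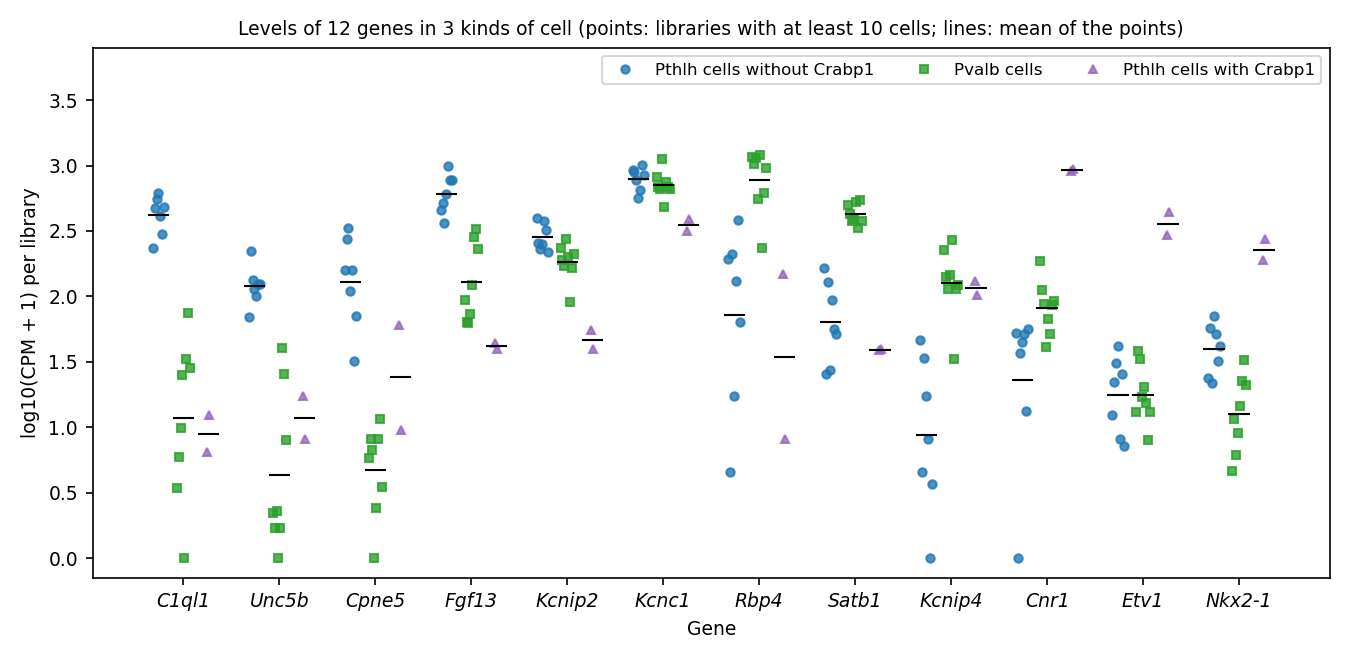
Level of 12 genes, as log10 of CPM plus 1, in Pthlh cells without Crabp1, Pvalb cells and Pthlh cells with Crabp1; each point is a library with at least 10 cells of that kind and each line the mean of the points. C1ql1, Unc5b, Cpne5 and Fgf13 are higher in the Pthlh cells without Crabp1 than in the other kinds, and Rbp4, Satb1 and Kcnip4 are lower in them than in Pvalb cells.

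Channels of fast spiking moved in both directions. Of 23 genes tested in that list, 5 were higher and 8 lower in Pthlh cells (median -0.18, beside -0.00 over all genes). Over all genes tested 9.50% were called. Kcnc1 (0.34, SE 0.07) and Kcnip2 (0.44, SE 0.10), which mark both kinds of cell, were slightly higher, as were Kcnd2, an A-type channel (1.14), and its partner Dpp10 (0.94). Kcnc2 and Kcnc4, channels of the same family as Kcnc1, were lower (-1.74 and -2.85), and so were the axonal channel Kcna1 (-0.96) and Kcnq3 (-0.85). Of 12 calcium channel genes, 3 were higher, among them Cacna1g (1.61, 5 of 6 libraries) and Cacna1d (0.81), and 1 lower, Cacna2d2 (-0.98), with a list median of 0.11. Of 9 genes of the axon initial segment, Nrcam, an adhesion molecule, was higher (0.72) and Kcnq3 lower, while Ank3, its master scaffold, stood at 269.5 ± 45.1 CPM in Pthlh cells and 333 ± 45.4 in Pvalb cells (SD, n = 6 libraries) and missed the threshold (list median -0.21).

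Transcription factors of the MGE lineage gave 9 genes higher and 6 lower of 25 tested (median 0.35), beside 9.50% called over all genes. Nkx2-1, which specifies MGE progenitors and gave the Cre driver its name, ran from 20.9 to 70.2 CPM (median 36.0) in Pthlh cells and from 3.62 to 31.6 CPM (median 12.0) in Pvalb cells (log2 difference 1.74, SE 0.26, adjusted p = 5.02e-05, higher in 5 of 6 libraries, with overlap). Nfib (2.44), Tox (2.18), Id2 (0.81) and Mef2c (0.61) were also higher, and Npas3 (-2.21) was lower beside Satb1.

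A further list held neuropeptides, neurexophilins, transmitter enzymes and transmitter receptors. Of its 14 genes tested, 8 were lower in Pthlh cells and 1 was higher (median -0.98), beside 9.50% called over all genes. The higher gene was Cck, the peptide cholecystokinin, which ran from 1074 to 2023 CPM (median 1540.3) in Pthlh cells and from 221 to 1161 CPM (median 554) in Pvalb cells (log2 difference 1.43, SE 0.14, adjusted p = 2.2e-07). Lower were Th, the nitric oxide synthase Nos1 (-1.88, 5 of 6 libraries), the cannabinoid receptor Cnr1 (-1.22), the nociceptin precursor Pnoc (-0.89) and Nxph1, a neurexin ligand (-0.55). Pth1r, the receptor of the Pthlh product, was itself lower, with 1.02 to 12.4 CPM (median 6.41) in Pthlh cells and 6.01 to 35.4 CPM (median 27.6) in Pvalb cells (log2 difference -1.88, SE 0.43, adjusted p = 0.00339, 5 of 6 libraries). In the list of its signalling, 1 gene was higher and 3 lower of 14 tested (median -0.11): the phospholipase Plcb4 (0.71) rose, while its relative Plcb1 (-1.33), the kinase subunit Prkacb (-0.60) and Pth1r fell.

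On the receiving side, 2 genes of GABA transport and reception were higher and 4 lower of 18 (median -0.16), beside 9.50% called over all genes. Among them, the GABA-A receptor subunits Gabra4 (-1.56, 5 of 6 libraries) and Gabra3 (-1.11) were lower in Pthlh cells and Gabrg3 (0.55) higher. Gabra3 ran from 18.6 to 45.6 CPM (median 30.1) in Pthlh cells and from 48.8 to 75.0 CPM (median 64.8) in Pvalb cells, lower in 6 of 6 libraries. Of 18 glutamate receptor genes, the AMPA receptor partner Cacng3 was higher (1.81), and the kainate receptor Grik1 (-1.67) and its partner Neto1 (-1.59) were lower (list median -0.14). Of 16 release genes, 3 were higher, the vesicle proteins Rph3a (2.26) and Syt1 (0.43, 5 of 6 libraries) and the membrane fusion protein Stx1a (1.01), and 4 lower, among them Syt2 (-2.11), Vamp1 (-1.43) and Cplx1 (-0.51), with a list median of -0.13. Syt2, a calcium sensor of fast release in basket cells, had a UMI in 11.4% of Pthlh cells and 50.2% of Pvalb cells (5.26 and 29.1% when thinned, which left out 99 Pvalb cells; 0.0989% of oligodendrocytes).

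Of 39 synaptic organizers and guidance genes tested, 11 were higher and 13 lower (median 0.18), beside 9.50% called over all genes. Beside C1ql1 and Unc5b, the postsynaptic organizer Elfn1 (3.52), the Eph receptor Epha5 (1.66) and the netrin receptor Unc5d (1.11) were higher, and the Slit receptor Robo1 (-2.07) was lower. Elfn1, often used as a marker of Sst cells, ran from 57.0 to 194 CPM (median 123) in Pthlh cells and from 1.21 to 52.7 CPM (median 9.91) in Pvalb cells, without overlap. Of 17 cadherins 4 were higher, among them Pcdh8 (2.57), Pcdh19 (1.72) and Cdh12 (1.31), and 6 lower, among them Cdh13, Cdh8 (-2.03) and Pcdh17 (-1.29), with a list median of -0.20. In a list of 9 genes tested, calcium-binding proteins and the complexin Cplx1, the sensor Hpca (1.52) and the calmodulin gene Calm2 (0.29) were higher, and Calb1 (-2.17, 5 of 6 libraries), Necab1 (-2.17), Cabp1 (-1.33) and Cplx1 lower (median -0.16). In smaller lists, the link protein Hapln4 fell (-1.17) among 5 genes of perineuronal nets (median -0.12), and the coactivator Ppargc1a fell (-0.60) among 8 genes of energy metabolism (median -0.09), beside 9.50% called over all genes. Among 7 activity-regulated genes, Egr1 (1.45) and Junb (0.96) were higher and Nr4a2 (-4.54) lower (median 0.60). The study also names Nr4a2 as expressed in part of its Th cluster, and the rule for Pvalb cells sets no limit on Th. Nr4a2 had a UMI in 1.84% of Pthlh cells and 18.6% of Pvalb cells. Of the 5 tested markers shared by Pvalb-type cells, Kcnc1 and Kcnip2 rose, Rbp4 and Syt2 fell and Tcap stood at 177 ± 68.0 and 216 ± 85.9 CPM (SD, n = 6; median -0.42). That list was chosen on these same samples and is no independent evidence.

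The count of 803 fell to 519 without cortex null replicate 2 and to 236 in the WT libraries alone, 231 of them shared with the 803. DESeq2 called 556 genes, all of them among the 803.

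Pthlh cells with at least 1 Crabp1 UMI, 85 cells called Crabp1 cells here, gave a second comparison. They had a median of 12992 UMIs, and 10 or more of them were found in cortex WT replicate 3 and cortex null replicate 2 alone (15 and 49 cells), so each gene rests on those 2 libraries with 1 residual degree of freedom, and values are given in that order. Of 7003 genes tested, 358 passed (5.11%), 170 higher and 188 lower in Pthlh cells without Crabp1. The median over all genes was -0.00, and 1320 genes had an unadjusted p under 0.05. DESeq2 called 116 genes, and leaving out either library leaves no replicate and could not be fitted. Genes given as higher or lower went the same way in both libraries.

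The chandelier markers separated these cells as well, and the tested genes by which the study describes the Crabp1 cells went the other way; both lists were drawn wholly or mainly from these same cells. C1ql1 stood at 557 and 614 CPM in Pthlh cells and 5.43 and 11.4 CPM in Crabp1 cells (log2 difference 5.86, SE 0.27, adjusted p = 8.43e-08). Fgf13 differed by 3.74, Unc5b by 3.63 and Cpne5 by 2.98, so that 4 of 4 tested markers were higher (median 3.69). Over all genes tested in this comparison 5.11% were called. Of the genes ascribed to Crabp1 cells, 7 of 7 tested were lower (median -3.40), led by Cnr1, the cannabinoid receptor, at 35.9 and 43.7 CPM in Pthlh cells and 901 and 933 CPM in Crabp1 cells (log2 difference -4.49, SE 0.18, adjusted p = 7.19e-08). Pcp4, a calmodulin-binding protein, differed by -3.84, the Eph receptor Epha4 by -3.64, the transcription factor Etv1 by -3.40, the link protein Hapln1 by -3.08, the calcium-binding Necab2 by -2.35 and Nkx2-1 by -2.19. Reln, of the same list, was too low to be tested and had a UMI in 9.93% of Pthlh cells and 0% of Crabp1 cells (2.26 and 0% when thinned; 0.735% of oligodendrocytes). Nkx2-1 stood at 20.9 and 70.2 CPM in Pthlh cells and 190.0 and 272 CPM in Crabp1 cells, so it was highest in Crabp1 cells, and Pthlh cells without Crabp1 lay between them and the Pvalb cells.

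Of the genes with the largest rises over Crabp1 cells, 4 had no UMI in Crabp1 cells of these libraries. Against a floor of 3 counts over both libraries, A830036E02Rik was at least 24.9-fold higher, Pxdc1 at least 24.2-fold, Pde5a, a cyclic GMP phosphodiesterase, at least 22.0-fold and Gfra1, the receptor of GDNF, at least 19.7-fold. Gpr123, an adhesion receptor (Adgra1 in the annotation), had 358 UMIs in Pthlh cells and 1 in Crabp1 cells, a ratio of 241 (95% counting interval 43.0 to 9546). The ratio was 75.1 (20.5 to 624) for Krt12, 74.7 (13.1 to 2978) for Gm4980 and 71.0 (19.4 to 590.3) for Itpr1, a calcium release channel. These intervals cover counting error alone. Cck stood at 1876 and 2023 CPM in Pthlh cells and 59.7 and 0 CPM in Crabp1 cells (log2 difference 7.18, SE 0.51, adjusted p = 1.98e-06), and Plcxd3 at 368 and 614 CPM in Pthlh cells and 16.3 and 7.11 CPM in Crabp1 cells (log2 difference 5.89, SE 0.32, adjusted p = 2.97e-07). Cck was thus the most abundant of the genes that separate the Pthlh cells from the Crabp1 cells among the 10 largest rises.

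The largest falls were in Megf11, St18, Lypd1, Opn3, Cd24a, Adamts5, Galnt14, Necab1, Epha8 and Cnr1. Megf11 had 3 UMIs in Pthlh cells and 206 in Crabp1 cells, a ratio of 102 lower (34.4 to 499), and the transcription factor St18 a ratio of 73.3 lower (24.6 to 359). Opn3, an opsin, stood at 2.99 and 13.2 CPM in Pthlh cells and 288 and 408 CPM in Crabp1 cells (log2 difference -5.15, SE 0.28, adjusted p = 2.97e-07), and Adamts5, a protease of the matrix, at 0 and 9.15 CPM in Pthlh cells and 228 and 185 CPM in Crabp1 cells (log2 difference -4.83, SE 0.41, adjusted p = 9.24e-06). Lypd1 was lower by a ratio of 55.0 (14.7 to 462), and Cd24a differed by -4.95, Galnt14 by -4.71, Necab1 by -4.64 and Epha8 by -4.49. In single cells, a UMI was found in 0.735% of the 272 for Megf11 and 14.7% for Galnt14 (0 and 4.89% when thinned; 0.523 and 0.170% in oligodendrocytes), against 88.2 and 87.1% of Crabp1 cells (52.9 and 51.8% when thinned, with 0 left out).

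By role, the potassium channel partner Kcnip2 (2.51) and the channels Kcnc2 (2.47), Kcnd2 (1.33) and Kcnc1 (0.82) were higher than in Crabp1 cells. Lower were 5 of 22 fast-spiking genes, Kcnip4 (-2.41) and Kcnq3 (-1.78) among them (median -0.38), beside 5.11% called over all genes. Of 6 shared Pvalb-type markers, Kcnc1, Kcnip2 and the sarcomere gene Tcap (3.88) were higher and none lower (median 0.72), while Pvalb itself stood at 1170.0 and 979 CPM in Pthlh cells and 527 and 1159.7 CPM in Crabp1 cells (log2 difference 0.30, SE 0.23, adjusted p = 0.544), which does not pass. Altogether 5 of 11 genes of the list of neuropeptides, neurexophilins, transmitter enzymes and receptors were higher, Cck, Pnoc (3.73) and Tac1 (2.92) among them, and Cnr1 and Nxph1 (-1.69) lower (median 2.16). Tac1 stood at 81.6 and 59.5 CPM in Pthlh cells with C1ql1 or Unc5b, at 2352 and 401 CPM in those with neither and at 163 and 2.85 CPM in Crabp1 cells. Of 6 perineuronal net genes, Adamts5, Hapln1 and Hapln4 (-1.98) were lower and none higher (median -1.35). Of 22 MGE factors, Mef2c (2.57) and Tox, with no UMI in Crabp1 cells of the 2 tested libraries (at least 6.73-fold), were higher and 4 lower (median 0.12). Kit, high in Pthlh cells beside Pvalb cells, was higher still in Crabp1 cells, at 114 and 204 CPM in Pthlh cells and 999 and 1033 CPM in Crabp1 cells (log2 difference -2.62, SE 0.18, adjusted p = 1.92e-06), and the adhesion gene Nrcam differed by -2.48. Markers of other cell classes moved with this comparison: Slc1a3, of the astrocyte list, stood at 0 and 1.02 CPM in Pthlh cells and 38.0 and 48.4 CPM in Crabp1 cells, and Prox1, of the CGE (caudal ganglionic eminence) list, at 0 and 10.2 CPM in Pthlh cells and 163 and 151 CPM in Crabp1 cells. Both were lower in Pthlh cells without Crabp1 (adjusted p = 0.000353 and 3.33e-05, edgeR quasi-likelihood); they were chosen once their values had been seen.

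Among Gad cells, Pthlh cells had overlapping shares in the regions of WT mice. They made up 2.87, 2.03 and 1.30% of Gad cells in cortex WT replicates 1, 2 and 3 (mean 2.06 ± 0.786%, SD, n = 3), and 3.77, 0.171 and 1.49% in hippocampus WT replicates 1, 2 and 3 (mean 1.81 ± 1.82%, n = 3). The ranges overlapped, and the difference of hippocampus from cortex was -0.255 percentage points (exact permutation test, two-sided, p = 0.9). In null libraries the shares were 1.57 and 7.65% in cortex replicates 1 and 2 (mean 4.61 ± 4.30%, n = 2), and 3.03 and 4.67% in hippocampus replicates 1 and 2 (mean 3.85 ± 1.16%, n = 2). Pthlh cells were thus most common in replicate 2 of both null groups, and the null and WT ranges overlapped in each region. The limits on genes and mitochondria kept 2578 of 2898 cells in cortex null replicate 2 and 4055 of 4436 in hippocampus null replicate 2. They kept 177 of 181 and 401 of 404 in replicate 1 of these groups, and 3930 of 3960 in cortex WT replicate 3. The effect of leaving these cells out was not tested. The difference of null from WT was 2.55 points in cortex (p = 0.4), 2.04 points in hippocampus (p = 0.3) and 2.30 points over both regions (p = 0.12), by exact two-sided permutation within region. With 3 against 3 or 3 against 2 libraries an exact permutation test cannot go below p = 0.1, and over both regions not below 0.01. Without cortex null replicate 2 the cortex difference turned to -0.489 points, thinning turned the hippocampus difference to -0.104 points, and as a share of all cells within the limits the difference over both regions was 1.03 points (exact p = 0.04), so no change in the number of Pthlh cells can be stated.

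**Figure D3:**
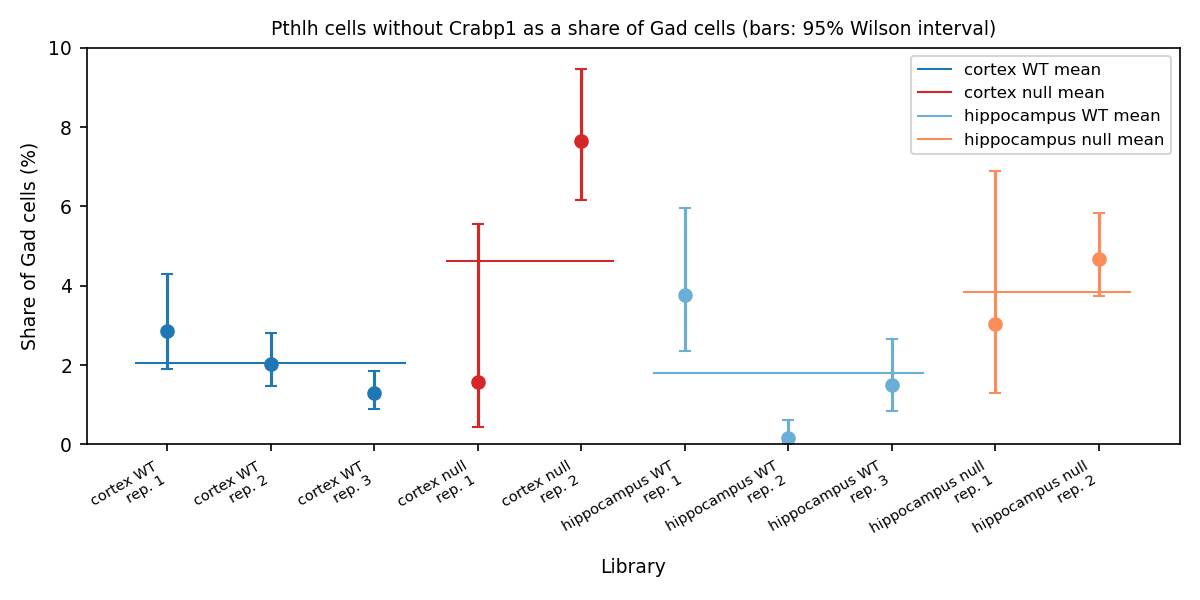
Share of Gad cells that are Pthlh cells (%) in each of the 10 libraries, by group, with 95% Wilson intervals from cell counts; lines are group means. Replicate 2 of cortex null is highest and replicate 2 of hippocampus WT lowest.

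Between regions, 3 of 6545 genes passed in WT Pthlh cells (0.0458% of those tested), all higher in hippocampus: Calb1, Lamp5 and Caln1. The 7 libraries were fitted together (edgeR quasi-likelihood, Benjamini-Hochberg); 273 genes had an unadjusted p under 0.05, DESeq2 called Calb1 alone, and the median over all genes was -0.01. Calb1 (chromosome 4, 15881264 to 15908064, plus strand), the calcium buffer calbindin, stood at 0, 7.06 and 18.0 CPM in cortex WT replicates 1, 2 and 3 and at 244, 0 and 142 CPM in hippocampus WT replicates 1, 2 and 3. Its difference was 4.21 (SE 0.54, adjusted p = 0.000887), and the WT libraries with at least 10 Pthlh cells, 3 of cortex and 2 of hippocampus, did not overlap. The cells with a Calb1 UMI were few: 0 of 22, 1 of 35 and 4 of 29 in cortex WT, and 5 of 17 and 1 of 11 in hippocampus WT replicates 1 and 3, where all 23 UMIs of replicate 3 came from 1 cell. Lamp5 (chromosome 2, 136052239 to 136069917, plus strand), a vesicle membrane protein, stood at 0, 0 and 2.99 CPM in cortex WT and at 101, 82.6 and 68.1 CPM in hippocampus WT. The tested libraries held 25 UMIs in hippocampus and 1 in cortex, a ratio of 65.9 (95% counting interval 10.8 to 2707; adjusted p = 0.00258). Lamp5 is also a marker of neurogliaform cells, and the markers of that list summed to 211, 84.7 and 119.7 CPM in cortex WT and 625, 165 and 303 CPM in hippocampus WT; of 3 tested, Lamp5 alone passed (median 2.11). Caln1 (chromosome 5, 130369455 to 130847412, plus strand), a calneuron, stood at 28.5, 17.6 and 44.9 CPM in cortex WT and at 172, 82.6 and 223 CPM in hippocampus WT (log2 difference 2.64, SE 0.42, adjusted p = 0.00709).

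In null libraries the 3 genes were also higher in hippocampus in replicate 2: Calb1 stood at 24.4 CPM in cortex and 167 in hippocampus, Lamp5 at 9.15 and 90.0, and Caln1 at 37.6 and 153. Replicate 1, with 2 and 5 Pthlh cells, had 0 and 0 CPM of Calb1, 203 and 63.0 of Lamp5 and 371 and 252 of Caln1, where the cortical Lamp5 UMIs lay in 1 cell. No gene of the chandelier list, of the fast-spiking channels or of the MGE factors passed between regions; C1ql1 stood at 234, 473 and 557 CPM in cortex WT and 409.5, 496 and 297 in hippocampus WT, and Pvalb at 1647, 945 and 1170.0 and at 374, 1901 and 1313. Without cortex WT replicate 2 or without cortex WT replicate 3, 0 genes passed between regions, and 4 passed without cortex WT replicate 1. Lamp5 lost the call without hippocampus WT replicate 1 and Caln1 without hippocampus WT replicate 3; with likely doublets left out, 5 of them among the 11 cells of hippocampus WT replicate 3, and with at least 5 Pthlh UMIs, Calb1 alone of the 3 passed. In these 2 settings hippocampus WT replicate 3 falls below 10 cells, so hippocampus WT is a single library, taken to vary like the other groups. Leaving out hippocampus WT replicate 1 or 3 likewise leaves hippocampus WT as a single library. Since 11 Pthlh cells of hippocampus WT replicate 3 and 17 of replicate 1 carry the whole contrast, a miss of the threshold is no sign that a gene is equal in the regions.

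**Figure D4:**
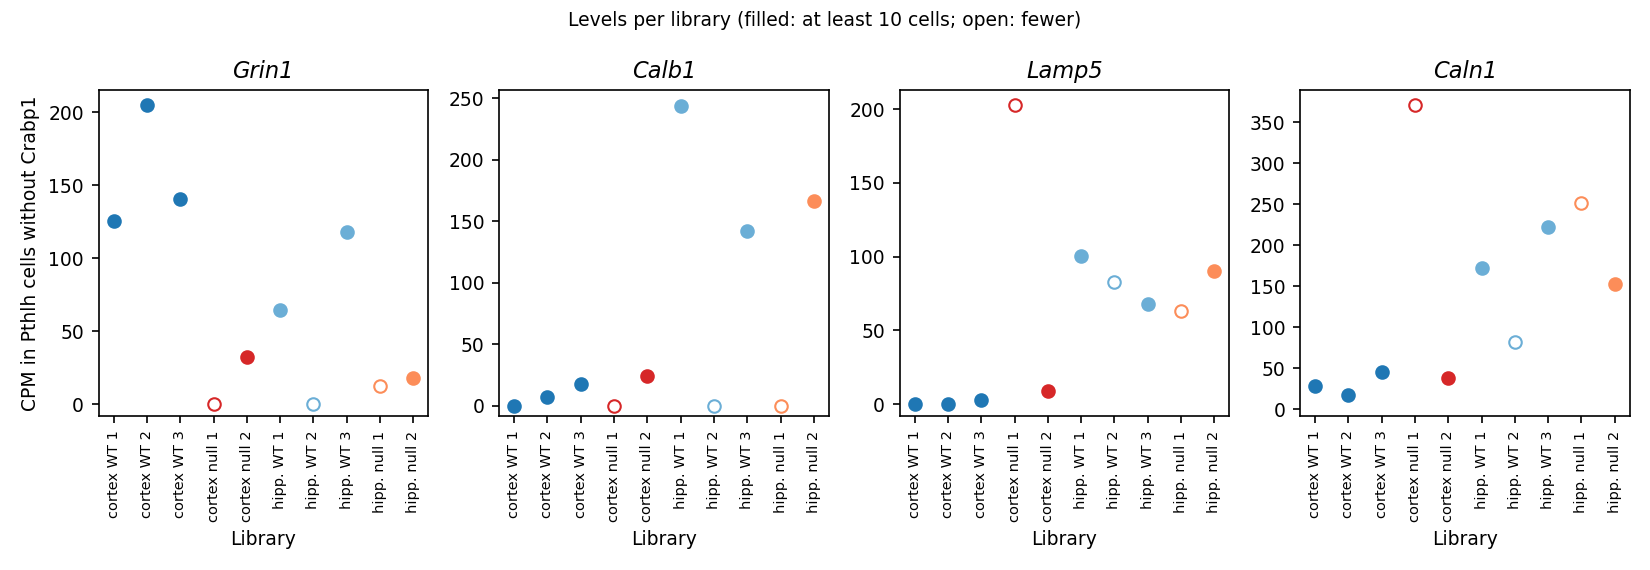
Level of Grin1, Calb1, Lamp5 and Caln1 (CPM) in Pthlh cells of each of the 10 libraries, by group; filled points are libraries with at least 10 Pthlh cells and open points those with fewer. Grin1 is lower in the filled null points than in the filled WT points, and the other 3 genes are higher in the filled hippocampus points than in the filled cortex points of the same genotype.

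Between genotypes, 1 of 6545 genes passed (0.0153%): Xist was lower in null Pthlh cells. Xist lost this call with the replicate fitted as a block, where 31 genes passed and 0 were shared with the 1. It stood at 348, 0 and 83.8 CPM in cortex WT replicates 1, 2 and 3, 266, 0 and 217 CPM in hippocampus WT, 338 and 0 CPM in cortex null replicates 1 and 2 and 0 and 0 CPM in hippocampus null. In the 7 tested libraries it had 161 UMIs in WT and 0 in null, at least 103-fold lower (floor of 3 counts; edgeR quasi-likelihood, adjusted p = 0.0077). The tested null libraries were both replicate 2, and cortex WT replicate 2 also stood at 0, so within replicate 2 of cortex Xist did not differ between the genotypes. At an unadjusted p under 0.05 there were 328 genes, 168 higher and 160 lower, and the median over all genes was -0.01. DESeq2 called 1 gene, Grin1, and not Xist. No gene of any other list passed. C1ql1 differed by 0.49 (SE 0.30), Unc5b by -0.11 (SE 0.35), Kcnip2 by -0.45 (SE 0.29), Kcnc1 by -0.29 (SE 0.28) and Pvalb by 0.36 (SE 0.35). The list medians ran from -0.72 for the markers of neurogliaform cells (3 genes tested) to 1.49 for the activity-regulated genes (5 tested), leaving aside the list of CGE markers, of which 1 gene was tested. Among the activity-regulated genes, Egr1, Fos and Junb were nevertheless lower in null within replicate 2 of cortex, at 335, 233 and 173 CPM in WT and 123, 97.6 and 72.2 CPM in null. In the main fit between genotypes, and for the response to genotype by region, each null group is a single library. It is taken to vary like the WT groups, from which all of the spread comes. A miss of the threshold there is no sign of an equal response. A difference between regions in the response to genotype passed for 0 of 6545 genes (interaction term, edgeR quasi-likelihood; 94 at an unadjusted p under 0.05). Without cortex WT replicate 3 the count of 1 turned to 0, without cortex WT replicate 1 or hippocampus WT replicate 1 to 2, and leaving out a tested null library leaves its region without null cells and could not be fitted.

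Markers of most other cell classes were low in Pthlh cells, with higher sums for oligodendrocytes and for several interneuron lists. Summed over all 272 cells, the oligodendrocyte list stood at 119 CPM, beside 135 CPM in Pvalb cells. Glutamatergic markers stood at 2.11 CPM, with Slc17a6 at 0, astrocyte markers at 1.81 CPM with Aqp4, Gja1 and Gfap at 0, and precursor markers at 4.82 CPM. The 4 microglia markers and the cholinergic markers were at 0, and vessel markers at 0.301 CPM. Among interneuron lists, markers of neurogliaform cells summed to 203 CPM, of which Id2 gave 145, with Ndnf at 0, and markers of Sst cells to 209.6 CPM, of which Elfn1 gave 114. CGE markers summed to 130.1 CPM, beside 5.70 CPM in Pvalb cells; Vip, chosen after its values were seen, gave 122 of it, all from 2 cells of cortex null replicate 2. By library the oligodendrocyte sum was higher in Pthlh cells than in Pvalb cells in hippocampus WT replicate 3 (192 and 155 CPM) and cortex null replicate 1 (67.5 and 56.6 CPM), and lower in the other 8.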

How the data were processed

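The authors deposited UMI counts per gene and cell for each of the 4 groups, as raw counts, with 43348 genes and 26987 barcodes. They state alignment to mm10 with Cell Ranger 2.1.1, with gene ends extended downstream, while the headers of the deposited matrices name version 3.0.2. Libraries are the suffixes of the barcodes, numbered as replicates within each group. The cells and the gene lists were chosen with earlier results of these data known.

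UMIs were summed per library and cell kind where at least 10 cells were present. Sums were compared with edgeR 4.0.16 (TMM scaling, low counts removed with filterByExpr, quasi-likelihood F test) in R 4.3.3. Models held library and cell kind, or region and genotype with their interaction. A gene is called when its Benjamini-Hochberg adjusted p is below 0.01 and its change reaches 0.1 in natural logs. SE is the absolute log2 difference divided by the square root of F. DESeq2 1.42.0 was the alternative. Named genes are the 10 called genes with the largest change per direction among those of at least 50 CPM that went the same way in every library, up to 6 per list, and the markers; others are named as chosen after their values were seen. Shares were compared by exact permutation of libraries. Thinning drew 3000 UMIs per cell at random. CPM values are UMIs per 1000000 UMIs of the summed cells. Positions are from GENCODE vM21. Python 3.11.15, numpy 2.4.6, scipy 1.17.1, pandas 2.3.3 and matplotlib 3.10.9 were used.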

Additional observations from a re-analysis of the deposited data

How the results depend on the processing

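The share differences kept their direction under most alternatives. Hippocampus against cortex in WT turned to 0.188 points with 5 Pthlh UMIs, 0.147 without cortex WT replicate 1 and 0.565 without hippocampus WT replicate 2 (range without each library -1.23 to 0.565). Null against WT in cortex turned to -0.489 without cortex null replicate 2 (range -0.489 to 5.59), and in hippocampus to -0.104 after thinning (range 1.22 to 3.02). Over both regions it was 1.03 as a share of all cells (exact p = 0.04), and ran from 0.776 to 3.82 without each library. Against Pvalb cells, 1255 genes passed at an adjusted p under 0.05 and 236 in WT libraries alone, and the count ran from 519 to 833 without each library. Against Crabp1 cells the counts were 596 at an adjusted p under 0.05, 116 with DESeq2, 591 with library-size scaling, 598 without a filter on low counts and 600 with 5 Pthlh UMIs; sums of at least 20 cells, WT libraries alone and leaving out a library could not be fitted. Between genotypes they were 2 at an adjusted p under 0.05, 14 without a filter, 2 with sums of at least 5 cells, 6 with 5 Pthlh UMIs, 31 with the replicate as a block (0 shared with the 1), 0 in hippocampus alone by edgeR (DESeq2 called 1 over both regions), and 0 to 2 without each library; sums of at least 20 cells and leaving out replicate 2 of a null group could not be fitted. Between regions they were 1 with DESeq2, 16 without a filter, 5 with 5 Pthlh UMIs, 21 with the block and 0 to 4 without each library; sums of at least 20 cells could not be fitted. WT replicates 1 and 3 alone held enough cells in both regions to pair, with correlations of 0.289 and 0.201, fewer pairs than the 3 that a check of pairing needs. An alternative chosen after seeing the data, the version 3 libraries alone, gave 3 genes between genotypes and 0 between regions. Of the named genes, under all alternatives run, 1383 values against Pvalb cells kept direction and call and 56 lost the call, 539 and 21 against Crabp1 cells, and 28 and 17 between regions; between genotypes, for Grin1 and Xist, 21 kept it, 5 lost it and 8 gained it; 0 reversed. The cause was not tested for any of these.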

Other observations

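Egr1, Fos and Junb, of the list of activity-regulated genes, followed the replicate in Pthlh cells; Fosl2 of the same list did not, with 8.91 CPM in replicate 2 of hippocampus null and 17.1 CPM in replicate 1 of cortex WT. Egr1 stood at 335, 123 and 108 CPM in Pthlh cells of replicate 2 of cortex WT, cortex null and hippocampus null, and at 22.8, 47.9, 0 and 6.19 CPM in replicates 1 and 3 of cortex WT and of hippocampus WT. Fos stood at 233, 97.6 and 156 CPM in Pthlh cells of replicate 2 of cortex WT, cortex null and hippocampus null, and at 28.5, 38.9, 7.18 and 31.0 CPM in replicates 1 and 3 of cortex WT and of hippocampus WT. Junb stood at 173, 72.2 and 84.6 CPM in Pthlh cells of replicate 2 of cortex WT, cortex null and hippocampus null, and at 28.5, 20.9, 14.4 and 6.19 CPM in replicates 1 and 3 of cortex WT and of hippocampus WT. Each replicate 2 library with at least 10 Pthlh cells, WT or null, was thus above each of the other 4 in these 3 genes, and cortex WT replicate 2 was the highest of all.

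The split of Pthlh cells by C1ql1 and Unc5b was seen within libraries as well. Thsd7a, chosen after its values were seen, stood at 1049 CPM in cells with either gene and 81.5 CPM in cells with neither in cortex WT replicate 1, at 1405 and 123 CPM in cortex WT replicate 3, and at 1373 and 596 CPM in cortex null replicate 2. In hippocampus WT replicate 1 it stood at 784 and 234 CPM, and in hippocampus null replicate 2 at 1064 and 301 CPM. Tac1, also chosen after its values were seen, went the other way, with 81.6 and 2352 CPM in cortex WT replicate 3 and 107 and 1021 CPM in hippocampus null replicate 2. Compared with Pvalb cells, Thsd7a differed by 3.15 on the log2 scale (SE 0.17; it passes the edgeR test).

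Vip, likewise chosen after its values were seen, was found in 2 of 272 Pthlh cells, both of cortex null replicate 2, with 404 UMIs together and 215 in the higher cell. It was the gene that passed when null and WT were compared in cortex alone, where null is a single library, so the call rests on those cells.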
